A study of Mus musculus with 8 samples.

Results

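Genes of the endoplasmic reticulum (ER) stress response were examined in the hippocampus of female mice injected with dehydroepiandrosterone (DHEA), an androgen precursor, or with its vehicle. The genes were chosen by name for their role, with earlier results of these data known. They are the chaperones Hspa5, Hsp90b1 and Calr, their co-factors and relatives Pdia4, Sdf2l1, Manf and Creld2, and the transcription factors Xbp1, Ddit3 and Atf4. These 10 genes are rows of a table of read counts for 29442 genes. All 10 were among the 27612 genes with at least 1 count, and the lowest count of any of them in any library was 182 (Sdf2l1). The study asked what chronic DHEA changes in the hippocampal transcriptome of female C57BL/6 J mice aged 6 to 8 weeks. By the labels and the study's methods, the 4 libraries labelled DHEA are from mice that received 30 mg/kg/day by abdominal subcutaneous injection for 21 days, and the 4 labelled sesame oil from mice injected with the vehicle for as long. Tissue was taken after the behavioural tests, and polyA RNA of whole tissue was sequenced, so every value below is an average over all cell types of a sample. Libraries are called by their labels, HipR3, HipR4, HipR7 and HipR11 for DHEA and HipR5, HipR10, HipR16 and HipR9 for sesame oil, and lists of 4 values keep this order. Directions follow the deposited treatment labels. In the study's own table of changed genes the sign of the comparison runs the other way, and whether the labels or that table are exchanged is not known here. The study's qRT-PCR of additional hippocampal samples reports Pomc as higher with DHEA. By the deposited labels Pomc was lower here (log2 fold change -1.16, DHEA over sesame oil). If the labels were exchanged, every direction below would reverse, so the groups are described as the libraries labelled DHEA and those labelled sesame oil.

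Secretory and membrane proteins fold in the ER, where chaperones bind their unfolded chains and disulfide isomerases and lectins help to complete the fold. When unfolded chains pile up, the sensors IRE1 (gene Ern1), PERK (Eif2ak3) and ATF6 start the unfolded protein response, in which spliced XBP1 and cleaved ATF6 raise the transcription of chaperone genes while PERK slows translation and favours the synthesis of ATF4, an activator of Ddit3 (CHOP). Gene counts read the amount of mRNA, and see neither the splicing of Xbp1 nor the translation of Atf4. Neurons express this machinery at rest, since they make large amounts of membrane and secreted protein.

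The chaperone genes are known for a short promoter sequence, the ER stress response element, read by ATF6 together with NF-Y. Promoter windows (250 bases before to 50 after the annotated start, RefSeq, GRCm38.p6) were available for 9 of the 10 genes; Manf had none. The element was searched on both strands as CCAAT, 9 bases of any kind and CCACG. It was found in 39 of 32851 windows of the same length (0.119%), and 4 of the 9 genes held it. The stretches of these 4 genes are shown. The element did not mark the genes that followed Hspa5 most closely across the libraries. Of those with it, Pearson's r with Hspa5 was 0.981 for Creld2, 0.9025 for Calr and 0.839 for Hsp90b1. Of those without it, r was 0.972 for Pdia4, 0.971 for Xbp1, 0.956 for Sdf2l1, 0.65 for Ddit3 and 0.495 for Atf4. Capitals mark CCAAT and CCACG, or CGTGG and ATTGG where the element lies on the other strand.
Hspa5: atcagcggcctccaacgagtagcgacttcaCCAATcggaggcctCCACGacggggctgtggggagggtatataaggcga
Hsp90b1: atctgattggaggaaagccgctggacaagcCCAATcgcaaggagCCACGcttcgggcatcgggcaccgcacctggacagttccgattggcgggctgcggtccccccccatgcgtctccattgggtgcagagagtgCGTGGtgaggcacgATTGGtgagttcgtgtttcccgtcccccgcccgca
Creld2: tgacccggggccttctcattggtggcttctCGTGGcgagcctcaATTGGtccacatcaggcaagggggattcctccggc
Calr: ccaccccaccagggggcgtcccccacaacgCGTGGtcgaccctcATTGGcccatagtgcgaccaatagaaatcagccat
The stretches lie at chr2:34771995-34772073 (plus strand) for Hspa5, chr10:86705503-86705686 (minus strand) for Hsp90b1, chr15:88819490-88819568 (plus strand) for Creld2 and chr8:84847045-84847123 (minus strand) for Calr. Counted from the start, the element spans -65 to -47 in Hspa5, -126 to -108 in Creld2 and -162 to -144 in Calr. Hsp90b1 holds it at -212 to -194 and again, on the other strand, at -107 to -89. The windows of Pdia4, Sdf2l1, Xbp1, Ddit3 and Atf4 hold no exact match. CCACG alone, which is part of the element, was in 32.8% of all windows. A second form of the element (ATTGG, 1 base, CCACG) was in 0.0365% of all windows and the ATF4 site (TGATG, 1 base, AA) in 3.97%, and 0 of the 9 genes held either. A match describes letters and was not tested as a binding site.

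The levels of the genes spanned a wide range. On the scale of FPKM, which corrects for gene length and was deposited by the authors, Calr (calreticulin, a calcium-binding lectin chaperone) had the highest level, at 201 ± 39.51 FPKM (SD, n = 8). It was followed by Hsp90b1 (GRP94) at 146 ± 22.6 FPKM (SD, n = 8), Hspa5 (BiP, the main ER HSP70) at 91.45 ± 28.85 FPKM (SD, n = 8) and Atf4 at 61.8 ± 3.83 FPKM (SD, n = 8). Manf had a mean of 51.2 FPKM and Xbp1 26.9 FPKM. Pdia4 (17.5 FPKM), Creld2 (9.34 FPKM), Sdf2l1 (7.03 FPKM) and Ddit3 (4.88 FPKM) were the lowest. The ranges of neighbours in this order overlapped over the 8 libraries, except for Manf (lowest 37.2 FPKM) and Xbp1 (highest 36.5 FPKM). The order itself held within each of the 8 libraries for most neighbours. The exceptions were Hspa5 above Atf4 and Sdf2l1 above Ddit3, each in 7 libraries, and Atf4 above Manf in 6.

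Hippocampal markers were present in every library, and several libraries stood apart. Camk2a, a kinase of excitatory neurons, had a mean of 669.6 FPKM, and Prox1, which marks granule cells of the dentate gyrus, lay at 112 to 145 normalized CPM in all 8 libraries. The summed level of 8 choroid plexus genes, led by Ttr, was 94.5 CPM in HipR4 and 515 CPM in HipR9 but 2050 to 4495 CPM in the other 6. The labels give the tissue as hippocampus and the study's methods as its ventral part. Each of the 4 DHEA libraries had more counts in total (at least 35748416) than each sesame oil library (at most 35418297). HipR5, a sesame oil library, held the highest normalized level of all 10 ER genes. Of the 12780 genes that averaged at least 100 counts, 11.4% were highest in HipR5. Results that rest on HipR5 are therefore given with and without it.

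Nearly all of the ER genes were lower in the libraries labelled DHEA. Raw counts were compared by the quasi-likelihood test of edgeR over all genes, with TMM factors applied to the library sizes. Levels are given as TMM-normalized counts scaled to 1000000 per library (CPM). The log2 fold change (DHEA over sesame oil) was below 0 for 10 of the 10 genes, against 48.8% of all genes tested, with a median of -0.37 against 0.0079 over all genes. An unadjusted p under 0.05 was reached by 9 of the 10 genes, all lower in the libraries labelled DHEA, where 4.49% of all genes tested were lower at that threshold and 4.82% higher. In either direction the share was 9.31%. The 10 genes were chosen with earlier results known, and 8 of them varied together (median r of their pairs 0.944). The 9 are therefore not independent results. The count was 5 of 10 with robust moderation in edgeR and 5 of 10 with limma on log2(FPKM + 1). The exact permutation test of the mean CPM (two-sided, 4 libraries against 4) gave a p under 0.05 for 1 of the 10 genes, Ddit3, and 0.0571 to 0.714 for the other 9. The ratio of the group means ran from 0.613 for Sdf2l1 to 0.980 for Atf4, and none of the 10 genes reached the fold change that the study asks for beside its p. Of genes averaging at least 100 counts, 7.6% were lower and 8.08% higher. After Benjamini-Hochberg adjustment over all 27612 genes, 0 of the 10 genes and 0 genes in all reached an adjusted p under 0.05 in edgeR, beside 2571 genes with an unadjusted p under 0.05. In DESeq2, 153 genes (1.21% of those it adjusted) had an adjusted p under 0.05, none of them among the 10, and 9 of the 10 had an unadjusted p under 0.05 in it. Without HipR5, 4 of the 10 genes (Hspa5, Sdf2l1, Creld2 and Calr) kept an unadjusted p under 0.05, 9 of 10 remained below 0 and the median was -0.25, with 3.23% of all genes lower and 3.31% higher at that threshold. Without HipR9, the sesame oil library with the lowest summed ER level, 8 of the 10 passed it (median -0.47), where 3.79% of all genes were lower. In whole tissue, fewer cells of a type and less RNA per cell cannot be told apart.

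**Figure D1:**
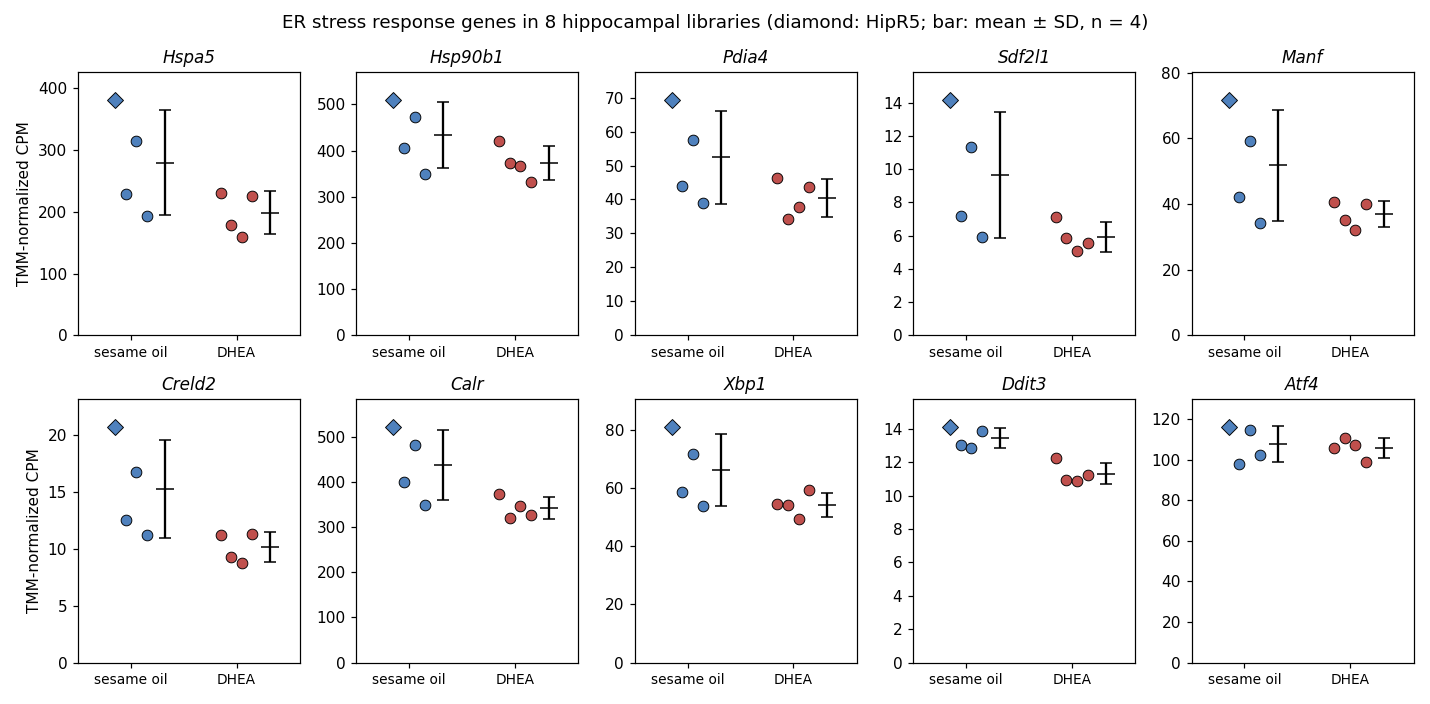
TMM-normalized CPM (vertical axes from 0) of each of the 10 ER stress response genes in the 4 sesame oil libraries (blue) and the 4 DHEA libraries (red), with the mean ± SD beside the points and HipR5 as a diamond. HipR5 is the highest point in all 10 panels, and Ddit3 is the gene whose groups do not overlap.

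Among the chaperones, Hspa5 had 230.0, 179, 160 and 226 CPM in the libraries labelled DHEA and 381, 229, 315 and 193 CPM in those labelled sesame oil. HipR5 and HipR16 were high, and HipR9 and HipR10 lay within the range of the DHEA libraries, so the groups overlapped. Its mean was 28.9% lower in the libraries labelled DHEA, with a log2 fold change of -0.49 (standard error, SE, 0.16, adjusted p = 0.322 in edgeR, Benjamini-Hochberg over all genes). The unadjusted p was under 0.05. Without HipR5 it still was, and the log2 fold change was -0.30, smaller by more than 1.5 times. The exact permutation test of the mean CPM over the 70 allocations gave p = 0.143 with all 8 libraries. Hspa5 binds unfolded chains and, at rest, also the sensors.

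Hsp90b1, an HSP90 of the ER that folds a narrower set of clients, had 421.5, 372.5, 367 and 333 CPM in the libraries labelled DHEA and 509, 406, 472 and 348 CPM in those labelled sesame oil. HipR3 lay above both HipR10 and HipR9, so the groups overlapped. Its log2 fold change was -0.22 ± 0.10 (SE, adjusted p = 0.513 in edgeR), and without HipR5 it was -0.13 and no longer past the unadjusted threshold. Calr had 374, 320.0, 347.5 and 326.5 CPM in the libraries labelled DHEA and 522, 401, 483 and 350 CPM in those labelled sesame oil. Here HipR3 alone among the DHEA libraries exceeded the lowest sesame oil library, HipR9. The log2 fold change of Calr was -0.36 ± 0.10 (SE, adjusted p = 0.263 in edgeR), and -0.27 without HipR5, still past the unadjusted threshold. Its adjusted p was the smallest of the 10 genes.

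Sdf2l1 and Creld2 had the most negative log2 fold changes of the 10 genes. Sdf2l1, which works with an ER J-protein in the BiP cycle, had 7.13, 5.86, 5.05 and 5.58 CPM in the libraries labelled DHEA and 14.2, 7.21, 11.4 and 5.90 CPM in those labelled sesame oil. HipR5 and HipR16 were again well above the other libraries, while HipR9 lay among the DHEA libraries. The mean of Sdf2l1 was 38.7% lower and its log2 fold change was -0.71 (SE 0.21, adjusted p = 0.297 in edgeR). Without HipR5 it was -0.46, smaller by more than 1.5 times but still past the unadjusted threshold. Creld2, a secreted ER protein with disulfide isomerase activity, had 11.3, 9.28, 8.74 and 11.3 CPM in the libraries labelled DHEA and 20.7, 12.6, 16.8 and 11.2 CPM in those labelled sesame oil. HipR3 and HipR11 were level with HipR9, and the other DHEA libraries lay below every sesame oil library. Its log2 fold change was -0.59 ± 0.16 (SE, adjusted p = 0.272 in edgeR), and -0.41 without HipR5, which also kept it past that threshold.

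Manf, a secreted protein with trophic effects on neurons that is held in the ER by BiP, had 40.6, 35.2, 32.0 and 40.1 CPM in the libraries labelled DHEA and 71.7, 42.1, 59.1 and 34.1 CPM in those labelled sesame oil. HipR9 was below 3 of the 4 DHEA libraries. The log2 fold change of Manf was -0.48 ± 0.16 (SE, adjusted p = 0.341 in edgeR) and -0.29 without HipR5. Pdia4, a disulfide isomerase, had 46.3, 34.1, 37.7 and 43.7 CPM in the libraries labelled DHEA and 69.3, 43.9, 57.4 and 39.0 CPM in those labelled sesame oil, so the lower sesame oil libraries lay among the higher DHEA ones. Its log2 fold change was -0.37 ± 0.14 (SE, adjusted p = 0.409 in edgeR) and -0.21 without HipR5. Leaving HipR5 out thus took Manf and Pdia4 above an unadjusted p of 0.05 and made the difference of each smaller by more than 1.5 times.

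The transcription factors differed among themselves. Xbp1 had 54.6, 54.2, 49.3 and 59.5 CPM in the libraries labelled DHEA and 81.01, 58.9, 71.7 and 53.9 CPM in those labelled sesame oil, which repeats the order HipR5, HipR16, HipR10 and HipR9 of the chaperones. Its log2 fold change was -0.29 ± 0.10 (SE, adjusted p = 0.388 in edgeR), and -0.18 without HipR5, smaller by more than 1.5 times and no longer past the unadjusted threshold. Ddit3 had 12.25, 10.9, 10.9 and 11.2 CPM in the libraries labelled DHEA and 14.1, 13.1, 12.85 and 13.9 CPM in those labelled sesame oil. Every DHEA library was below every sesame oil library, by a small margin between HipR3 and HipR16. Ddit3 was the only one of the 10 genes without overlap, where 2.62% of all genes tested were lower without overlap and 4.23% of those averaging at least 100 counts. The group means were 11.3 ± 0.63 CPM with DHEA and 13.5 ± 0.61 CPM with sesame oil (SD, n = 4 each), and the exact permutation test (two-sided) gave p = 0.0286, the smallest value possible with 4 against 4. The log2 fold change was -0.25 ± 0.10 (SE, adjusted p = 0.458 in edgeR), and -0.23 without HipR5, where the unadjusted p was above 0.05. Without HipR9 and HipR11, which GEO registered apart from the other 6 libraries, it was also -0.23 and above that threshold.

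Atf4 gave nearly equal levels, with 106, 111, 107 and 99.1 CPM in the libraries labelled DHEA and 116, 98.0, 115 and 103 CPM in those labelled sesame oil. The libraries of both groups were interleaved, and HipR4, low for most ER genes, was the third highest for Atf4. The log2 fold change was -0.03 with a standard error of 0.07 (adjusted p = 0.895 from edgeR with Benjamini-Hochberg adjustment), and its sign turned to 0.0080 without HipR5. Over the 10 genes the ratio of the highest to the lowest library ran from 1.18 for Atf4 and 1.29 for Ddit3 to 2.39 for Hspa5 and 2.80 for Sdf2l1.

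**Figure D2:**
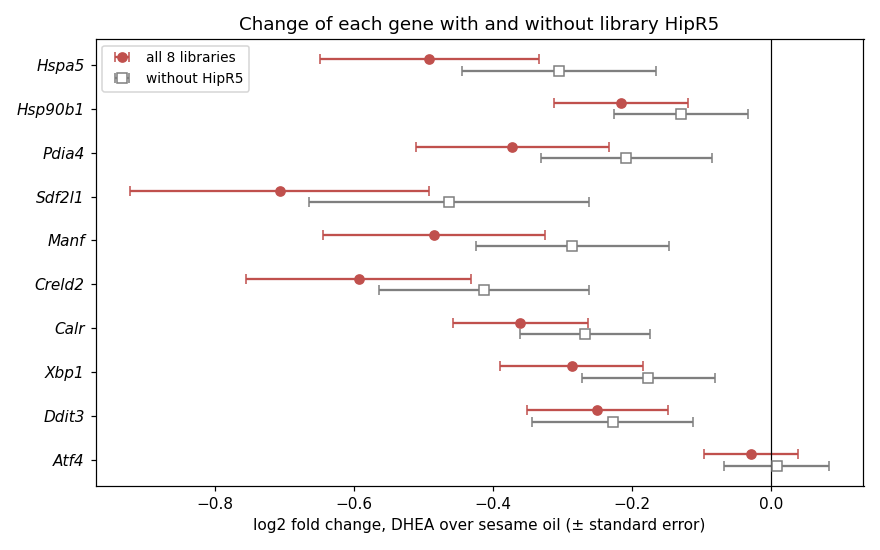
Log2 fold change (horizontal axis, DHEA over sesame oil, with its standard error) of the 10 genes, fitted with edgeR with all 8 libraries (filled red) and without HipR5 (open grey). Each of the first 8 genes moves towards 0 without HipR5, Ddit3 moves from -0.25 to -0.23, and Atf4 lies close to 0, at -0.03 and 0.0080.

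Across the 8 libraries most of the ER genes varied together, in an order that did not follow the treatment labels throughout. Relative to each gene's own mean on the scale of log2(CPM + 0.5), the median over the 10 genes was 0.52 in HipR5, 0.33 in HipR16, -0.01 in HipR10 and -0.17 in HipR9. In the libraries labelled DHEA it was -0.02 in HipR3, -0.11 in HipR11, -0.27 in HipR7 and -0.27 in HipR4. HipR9 therefore lay below HipR3 and HipR11, and HipR3 was close to HipR10. The lowest library was HipR7 for 6 of the 10 genes and HipR4 for 2, where 12.9% and 19.1% of the genes averaging at least 100 counts were lowest in them. The summed level of the 10 genes was 1303, 1132, 1125 and 1156 CPM in the libraries labelled DHEA and 1799, 1312, 1614 and 1151 CPM in those labelled sesame oil. The spread was wider among the sesame oil libraries (1469 ± 292 CPM, SD, n = 4) than among the DHEA libraries (1179 ± 84.0 CPM, SD, n = 4), a difference that was not tested.

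**Figure D3:**
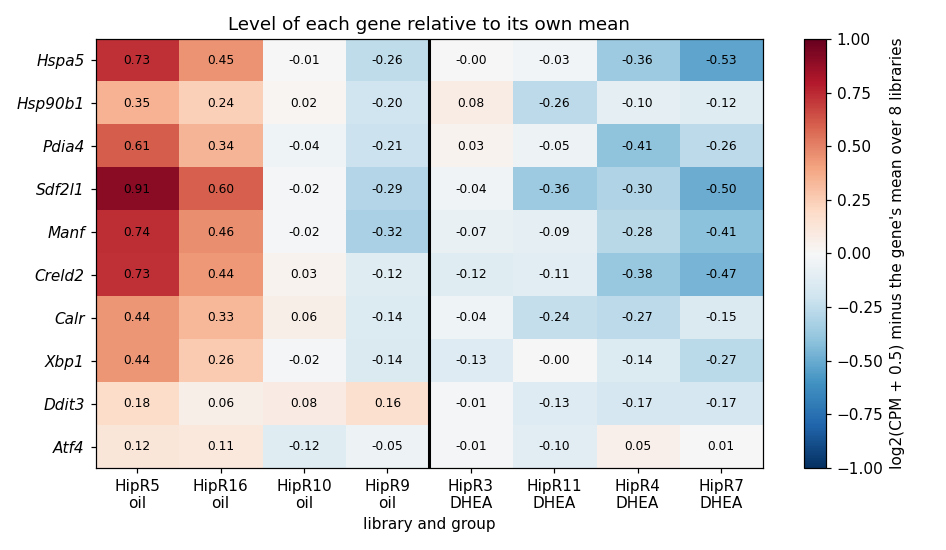
Level of each of the 10 genes in each library as log2(CPM + 0.5) minus the gene's mean over the 8 libraries (red above, blue below, printed in each cell), with sesame oil on the left and DHEA on the right of the black line. The columns of HipR5 and HipR16 are red for every gene, and the rows of Ddit3 and Atf4 are the palest.

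The levels of Hspa5 were set against those of each of the other 9 genes over the 8 libraries (log2(CPM + 0.5), two-sided exact permutation tests over all pairings, adjusted by Benjamini-Hochberg over the 9 relations). By Pearson's r, Manf was closest to Hspa5, with r = 0.986 (adjusted permutation p = 0.000781) and Spearman's rho = 0.952 (adjusted permutation p = 0.00513). Creld2 (r = 0.981, rho = 0.929), Pdia4 (r = 0.972, rho = 0.976) and Xbp1 (r = 0.971, rho = 0.881) had the same adjusted permutation p for r. By rho, Pdia4 was the closest. Sdf2l1 (r = 0.956, adjusted permutation p = 0.00134), Calr (r = 0.9025, adjusted permutation p = 0.00577) and Hsp90b1 (r = 0.839, adjusted permutation p = 0.0130) followed. The relation did not pass the threshold for Ddit3 (r = 0.65, rho = 0.6905, adjusted permutation p for r = 0.0941) or Atf4 (r = 0.495, rho = 0.333, adjusted permutation p for r = 0.217). The groups share the difference in level described above, so r within each group is given as a description: Manf had 0.996 in the DHEA libraries and 0.9995 in the sesame oil libraries, Creld2 0.996 in both, and Hsp90b1 0.131 and 0.988.

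The relations were recomputed without the libraries at the extremes. Without the 2 libraries farthest from the median of Hspa5, HipR5 and HipR7, r was 0.985 for Pdia4, 0.975 for Manf, 0.947 for Creld2, 0.917 for Xbp1 and 0.887 for Calr (adjusted permutation p of 0.0125 to 0.0350). For Sdf2l1 (r = 0.894, adjusted permutation p = 0.0542) and Hsp90b1 (r = 0.7425, adjusted permutation p = 0.105) the adjusted p was above the threshold over these 6 libraries, although r was as high for Sdf2l1 as for Calr. Without HipR5 and HipR16, a choice made after seeing the data, r over the other 6 libraries was 0.956 for Manf, 0.904 for Creld2, 0.858 for Pdia4 and 0.854 for Xbp1 but 0.306 for Hsp90b1 and 0.475 for Calr. None of the 9 had an adjusted permutation p under 0.05 there, the smallest being 0.05 for Manf and Creld2, with unadjusted permutation p of 0.0111 and 0.00556. For Atf4 the sign turned (r = -0.67). Among all pairs of the 8 genes other than Atf4 and Ddit3, r over the 8 libraries was 0.801 to 0.986 (28 pairs, median 0.944), while Atf4 had a median r of 0.557 and Ddit3 of 0.635 with the other 9 genes.

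**Figure D4:**
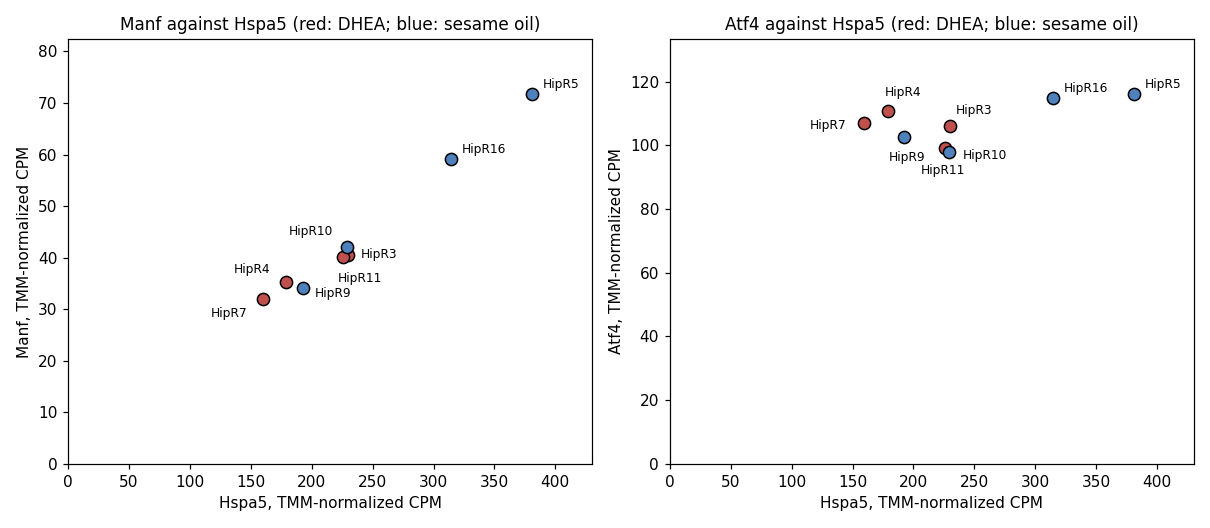
Normalized CPM of Manf (left) and Atf4 (right) against that of Hspa5 in each library (red for DHEA, blue for sesame oil; all axes from 0). Manf follows Hspa5 (r = 0.986 on the log2 scale), with HipR5 and HipR16 at the upper right, whereas Atf4 stays between 98.0 and 116 CPM.

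Most other genes of ER folding did not pass the threshold. Of 24 further folding genes (J-proteins, disulfide isomerases, oxidases and lectins), 3 were lower at an unadjusted p under 0.05, 0 were higher and 21 did not pass, with a median log2 fold change of -0.01. Of all genes averaging at least 100 counts, 7.6% were lower. The 3 were Pdia6, Uggt1 and Hyou1. Pdia6, a disulfide isomerase, had 96.05, 81.01, 77.1 and 78.3 CPM in the libraries labelled DHEA and 132, 102, 128 and 85.6 CPM in those labelled sesame oil, so that HipR3 alone exceeded HipR9. Its log2 fold change was -0.43 ± 0.11 (SE, adjusted p = 0.245 in edgeR) and -0.34 without HipR5, still past the unadjusted threshold. Uggt1, the sensor of misfolded glycoproteins, was lower in every DHEA library (46.8 to 60.4 CPM) than in every sesame oil library (61.7 to 71.9 CPM). Its log2 fold change was -0.24 (adjusted p = 0.362 in edgeR). Of the 24 folding genes, 3 were lower without overlap and 1 higher. Of genes averaging at least 100 counts, 4.23% were lower without overlap and 4.23% higher. Hyou1, the exchange factor of BiP, had a log2 fold change of -0.27 (adjusted p = 0.369 in edgeR), and without HipR5 -0.18 and an unadjusted p above 0.05. The abundant Canx (calnexin, log2 fold change 0.04) and Ppib (cyclophilin B, -0.04) were near 0. HipR5 was the highest library for 10 of these 24 genes.

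The sensors themselves gave no difference past the threshold. The log2 fold change was -0.02 for Ern1 (adjusted p = 0.984 in edgeR), -0.03 for Eif2ak3 (adjusted p = 0.912), 0.09 for Atf6 (adjusted p = 0.661) and -0.06 for Atf6b (adjusted p = 0.711), each with a standard error of 0.06 to 0.12. Ern1 had 14.04 ± 2.62 CPM with DHEA and 14.2 ± 0.55 CPM with sesame oil (SD, n = 4 each). In the list of 10 sensors and their processing enzymes, Mbtps2, the protease that releases ATF6 in the Golgi membrane, was the only gene with an unadjusted p under 0.05, and it was higher (log2 fold change 0.18, adjusted p = 0.463 in edgeR, no overlap between the groups). This is 1 of 10 genes, where 9.31% of all genes passed in either direction. Of genes averaging at least 100 counts, 4.23% were higher without overlap. Without HipR5 the log2 fold change of Mbtps2 was 0.17, and its unadjusted p was above 0.05. Rtcb, which rejoins the Xbp1 exons and had the highest FPKM of the list, had a log2 fold change of 0.02. The median of the list was 0.0064.

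Of 21 quality control and translocation genes, 3 were lower and 2 higher at an unadjusted p under 0.05, 16 did not pass and the median was 0.03. Among all genes averaging at least 100 counts, 7.6% were lower and 8.08% higher. Syvn1, the ubiquitin ligase HRD1, was lower (log2 fold change -0.20, adjusted p = 0.477 in edgeR), as was its partner Sel1l (-0.14). Derl3 was lower with a mean count of only 15.9 (log2 fold change -1.14). Sec61g, a translocon subunit, was higher (log2 fold change 0.25). The abundant Vcp and Sec62 had log2 fold changes of 0.03 and 0.09. Without HipR5, 1 gene (Derl3) remained lower at this threshold, and Sec61g stayed higher, where 3.23% of all genes were lower and 3.31% higher.

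Most targets of ATF4 and CHOP did not pass the threshold. Of 28 genes, 2 were lower, 4 higher and 22 did not pass, and the median was 0.02. Of all genes averaging at least 100 counts, 7.6% were lower and 8.08% higher. Psat1, an enzyme of serine synthesis, was higher (log2 fold change 0.27, adjusted p = 0.261 in edgeR), as was Ddit4, an inhibitor of mTORC1 signalling (0.33). Cars and Sars, transfer RNA synthetases, were lower (log2 fold changes -0.27 and -0.17). Without HipR5, 2 of the 4 higher genes (Psat1 and Ddit4) and both lower ones still passed, where 3.31% of all genes were higher and 3.23% lower. Nars, the most abundant gene of the list, had 0.05. HipR5 was the highest library for 1 of the 28 genes, while it was the highest for all 10 of the ER stress response genes. Among 9 genes for eIF2 kinases, eIF2 and eIF2B, Eif2ak2 (PKR) was higher (log2 fold change 0.34, adjusted p = 0.303 in edgeR), 0 were lower and the median was -0.05. The abundant Eif2ak1 and Eif2b5 had -0.10 and 0.01.

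Cytosolic heat shock genes were described for comparison. Of 20 genes, 4 were lower and 0 higher at an unadjusted p under 0.05, against the same 7.6% and 8.08%, the median was -0.07, and HipR5 was the highest library for 10. Chordc1, a co-chaperone of HSP90, had 60.0, 57.7, 64.3 and 59.3 CPM in the libraries labelled DHEA and 144, 105.5, 73.5 and 63.8 CPM in those labelled sesame oil. HipR5 and HipR10 were far above the rest, and HipR7 exceeded HipR9. Its log2 fold change was -0.68 ± 0.17 (SE, adjusted p = 0.240 in edgeR) and -0.42 without HipR5, smaller by more than 1.5 times but still past the unadjusted threshold. Stip1 (log2 fold change -0.17), Dnajb1 (-0.19) and Hspb1 (-0.52) did not pass without HipR5 (-0.12, -0.14 and -0.40), which left 1 of the 4. In that fit 3.23% of all genes tested were lower at the threshold. The abundant Hsp90ab1 and Hspa8 had -0.06 and -0.10.

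**Figure D5:**
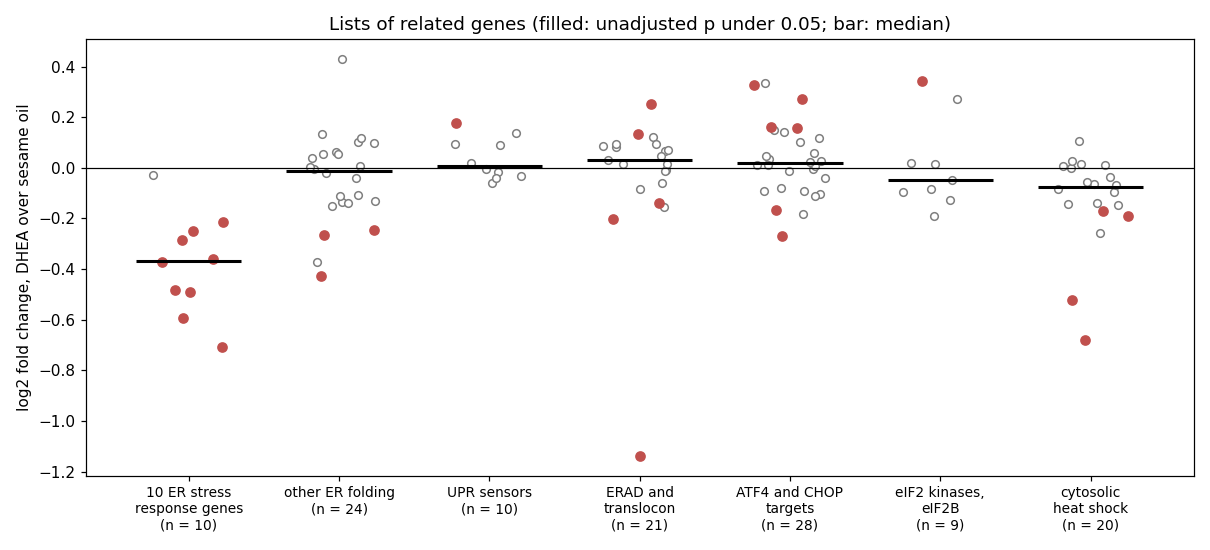
Log2 fold change (vertical axis, DHEA over sesame oil) of each gene in the 10 ER stress response genes and in 6 lists of related genes, with filled points for an unadjusted p under 0.05 (edgeR) and a bar at the median. The bar of the 10 genes is at -0.37, and those of the other lists lie between -0.07 and 0.03.

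Genes outside these lists were picked for their likeness to the ER genes across the libraries. The mean z score of the 10 ER genes was correlated with each of the 12780 genes that averaged at least 100 counts, as a description over 8 libraries that also share their normalization. Outside the ER lists, Lpin2, Brap, Map7d2, St3gal1, Tubg1, Galnt9, Ciapin1 and Asic4 were the most alike, with r of 0.962 to 0.972. Their highest library exceeded their lowest by 1.18 times (Lpin2, a phosphatidate phosphatase) to 1.51 times (Asic4, of the acid-sensing ion channel family), where the 10 ER genes ran from 1.18 times (Atf4) to 2.80 times (Sdf2l1). HipR5 was the highest library for 7 of the 8, and Galnt9 was highest in HipR16. Galnt9, an enzyme of mucin-type glycosylation, was the only one with an unadjusted p under 0.05 (log2 fold change -0.22, adjusted p = 0.3995 in edgeR). The 100 most similar genes held 8 of the 10 ER genes, which helped to define the score, 5 of the further folding genes (Pdia6, Hyou1, Erp44, Dnajb11 and Pdia3) and 2 cytosolic heat shock genes (Dnajb1 and Stip1). The median r was 0.39 for the further folding genes, 0.63 for the cytosolic heat shock genes and 0.03 for all candidates.

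Markers of other cell types moved with the groups as well. All 8 oligodendrocyte genes were higher in the libraries labelled DHEA at an unadjusted p under 0.05, with a median log2 fold change of 0.39. Their summed level, to which Mbp contributed most, was 6387, 8075, 6316 and 6551 CPM in the libraries labelled DHEA and 5111, 5090, 4309 and 6145 CPM in those labelled sesame oil, without overlap. At this threshold 4.82% of all genes tested were higher, and 8.08% of those averaging at least 100 counts. Of the astrocyte genes, 5 of 8 were higher (median 0.17), of the microglial genes 4 of 9 (median 0.22), of the endothelial genes 3 of 8 (median 0.12) and of the oligodendrocyte precursor genes 2 of 6 (median 0.12). Of the hippocampal neuron genes 1 of 8 was higher and 0 were lower (median -0.05), and of the pan-neuronal genes 1 of 8 was lower (median -0.05). Without HipR5, 2 of the 8 astrocyte genes and 0 of the 8 hippocampal neuron genes were higher at that threshold, while 7 of the 8 oligodendrocyte genes were, against 3.31% of all genes. The median r with the mean z score of the ER genes was -0.74 for oligodendrocyte genes, -0.70 for astrocyte genes and -0.57 for microglial genes. The neuronal lists differed, with a median r of 0.45 for pan-neuronal genes and -0.03 for hippocampal neuron genes, beside 0.03 for all candidates. Of the other marker lists, 1 of 6 mural genes was higher (median 0.04), 0 of 6 meningeal genes passed in either direction (median 0.07), as did 0 of 8 choroid plexus genes (median 0.45), and 1 of 6 thalamic genes was higher (median 0.21), but 0 without HipR5. The share of counts from 13 mitochondrially encoded genes was 7.87%, 9.34%, 7.59% and 7.29% in the libraries labelled DHEA and 6.37%, 7.23%, 6.99% and 6.87% in those labelled sesame oil, also with no overlap (p = 0.0286, exact permutation). The part of cell composition, mitochondrial share and depth in the lower level of the ER genes was not tested.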

How the data were processed

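Total RNA was extracted with TRIzol, and polyA libraries of 8 hippocampi were sequenced. Per the submitters' processing notes, reads were handled with fastp, HISAT2 and HTSeq on GRCm39, without versions. Raw counts per gene, and FPKM values derived from them, were deposited by the authors. The counts were analysed with edgeR 4.0.16 under R 4.3.3 (TMM, genes with at least 1 count, prior count 0.125, quasi-likelihood test, group as the only term, Benjamini-Hochberg over 27612 genes). CPM are TMM-normalized. FPKM was used for levels between genes. Single values were compared by exact permutation over 70 allocations. In fits that leave out a library, shares of calls were computed over all genes tested and not by abundance. P-values measure the spread between these 8 samples. Total counts of 31483772 to 38038361 set the counting precision, and no member had under 182 counts in a library.

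The 10 members and all gene lists were chosen with earlier results of these data known. Named genes were the members, 4 sensors, the 2 genes of highest mean FPKM and up to 4 of smallest p under 0.05 in each related list, and the 8 genes most similar to the members. Sel1l was named as a partner of Syvn1 after its values were seen. Some genes that the rule names are not reported here. Lists of activity-induced and anterior pituitary genes were also described. Alternatives were DESeq2 1.42.0, RLE normalization, other count filters and prior counts, robust moderation, limma 3.58.1 on log2(FPKM + 1) or log2(FPKM + 0.1), and leaving out each library. A GC correction, a filter on mean count and the removal of HipR5, of HipR9 with HipR11, or of HipR5 with HipR16 in correlations and lists were chosen after seeing the data. HipR9 and HipR11 were registered in GEO apart from the other 6 libraries, and whether they form a batch is not given in the sources used here. GENCODE vM21 transcripts supplied the GC content. Promoters were RefSeq windows of GRCm38.p6 and were not joined to the counts by coordinate. Scripts were tested on simulated data.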

Additional observations from a re-analysis of the deposited data

Results flagged for a closer look

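No value of the 10 ER stress response genes stood far from the others of its group by Dixon's criterion. Of 64 groups of 4 libraries examined, 2 did, where chance alone would give about 3.2. In the libraries labelled DHEA, the summed level of 8 oligodendrocyte genes was 8075 CPM in HipR4 against 6316 to 6551 CPM in the other 3 (gap over range 0.867). HipR4 was also the library with the lowest Pdia4 among all 8. In the libraries labelled sesame oil, the summed level of 8 anterior pituitary genes was 30.2 CPM in HipR10 against 3.53 to 6.91 CPM in the other 3 (gap over range 0.874). Prl was the most abundant of these genes. Fshb was at 0 in all libraries, and Pou1f1 was above 0 only in HipR10. The level of Hspa5 in HipR10 (229 CPM) was close to that in HipR3 and HipR11.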

How the results depend on the processing

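All 10 genes had a log2 fold change below 0 under every alternative except Atf4, which turned to 0.0080 without HipR5 and to 0.0011 without HipR11 (range over left-out libraries -0.072 to 0.0080). Sdf2l1, Creld2 and Calr kept an unadjusted p under 0.05 in 20 of 20 alternatives, Xbp1 in 19, Hspa5 in 18, Ddit3 in 17, Manf in 16, Pdia4 in 15 and Hsp90b1 in 9. The number of the 10 genes past that threshold was 9, also with DESeq2, RLE normalization and a prior count of 1. It was 8 with filterByExpr, with at least 10 counts over the libraries, with a mean count of 10 or more and without HipR9 and HipR11, 7 with limma on log2(FPKM + 1) at a mean FPKM of at least 1, and 6 with limma on log2(FPKM + 0.1). It was 5 with robust moderation, 5 with limma on log2(FPKM + 1) and 4 to 9 when a library was left out, with 4 without HipR5. Over all genes, 0 had an adjusted p under 0.05 in the edgeR test, against 153 with DESeq2, 4 with robust moderation, 1 with limma on log2(FPKM + 1) at a mean FPKM of at least 1, 38 without HipR9 and HipR11, and 0 to 93 when a library was left out (93 without HipR7, 12 without HipR11). None of the 10 had an adjusted p under 0.05 in any of these, the smallest being 0.0568 (Creld2 in DESeq2). The number with an unadjusted p under 0.05 was 1786 to 3667 over the left-out libraries.

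The correlation of Hspa5 with Hsp90b1 (0.839) was 0.743 without the 2 libraries farthest from the median of Hspa5, 0.700 without HipR5 and 0.306 without HipR5 and HipR16. That with Sdf2l1 was 0.894 without the former 2 and 0.7625 without HipR5 and HipR16. The latter setting also gave 0.858 for Pdia4, 0.956 for Manf, 0.904 for Creld2, 0.475 for Calr and 0.854 for Xbp1, none with an adjusted permutation p under 0.05, and -0.67 for Atf4. Over 6 libraries few pairings are possible. The cause of these shifts was not tested. Removing the trend with GC content among genes averaging at least 10 counts gave 9 of the 10 genes past the threshold, against 8 with that filter alone (Hsp90b1 passed with the correction only). This correction was not run over all genes, because GC content was found for 78.3% of them. The groups share no animals. The study's methods name littermates as controls, but the labels give neither the litters nor numbers that pair the mice, so no paired analysis was possible.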

Other observations

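The annotated promoters of 37 genes, 4 of the 10 ER stress response genes among them, held the element searched above, and 30 of the 37 were tested. This set was drawn up after the values were seen and is described by its counts. Leaving out those 4, 8 of the other 26 were lower in the libraries labelled DHEA at an unadjusted p under 0.05 and 1 was higher, where 4.49% and 4.82% of all genes tested were. The median log2 fold change of the 26 was -0.16. Of the 12 that averaged at least 100 counts, 5 were lower (Pdia6, Zfp57, Pan2, Syvn1 and Adcy3) and 0 higher, against 7.6% and 8.08% of all genes of that abundance. Without HipR5, 6 of the 26 and 3 of the 12 were lower at this threshold, and 3.23% of all genes tested were. The share among genes averaging at least 100 counts was not computed in that fit, so the 3 of 12 have no like comparison. Zfp57, a zinc finger protein that maintains imprints, had a mean of 6.08 CPM in the libraries labelled DHEA and 9.41 CPM in those labelled sesame oil (log2 fold change -0.63, adjusted p = 0.293 from edgeR with Benjamini-Hochberg adjustment). The folding genes Canx and Dnajc3 also hold the element, and their log2 fold changes were 0.04 and -0.02 (adjusted p = 0.867 and adjusted p = 0.965 in edgeR).

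Of 10 genes induced by neuronal activity, 5 had an unadjusted p under 0.05, all lower in the libraries labelled DHEA, where 4.49% of all genes and 7.6% of those averaging at least 100 counts were. Without HipR5, 2 of the 10 were, against 3.23% of all genes. The median log2 fold change was -0.33. Egr1 had 96.2, 105, 153 and 138 CPM in the libraries labelled DHEA and 187, 130.5, 229.5 and 152 CPM in those labelled sesame oil, with a log2 fold change of -0.50 (standard error 0.15, adjusted p = 0.293 from edgeR with Benjamini-Hochberg adjustment). HipR16 and HipR5 were the highest libraries for Egr1, as they were for Hspa5, but HipR3 was the lowest, where HipR3 was the highest DHEA library for Hspa5. Their median r with the mean z score of the ER genes was 0.45. Of the 7 anterior pituitary genes tested, 3 (Prl, Gh and Pomc) were lower at that threshold, and 3 averaged under 10 counts. The direction of Pomc is opposite to that of the study's qRT-PCR, but its level was high in HipR10 alone (4.93 CPM). HipR10 held most of the summed level of the pituitary genes, at 30.25 CPM. It was 3.53 to 6.91 CPM in the other sesame oil libraries and 1.85 to 3.37 CPM in those labelled DHEA. The part of activity before tissue collection in the level of the ER genes was not tested.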
